A study of Homo sapiens with 20 samples.

Results

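The genes described here encode the subunits of the oxidative phosphorylation machinery, followed while human neural progenitor cells differentiated towards neurons. Members were chosen by gene symbol among the coding gene records: NADH dehydrogenase subunits (NDUFA, NDUFB, NDUFC, NDUFS, NDUFV and NDUFAB genes), the SDHA to SDHD genes, the UQCR genes with CYC1, the COX4 to COX8 genes and the ATP5 genes. The rule found 86 symbols among 20237 coding records, with 39 in complex I, 4 in complex II, 8 in complex III, 18 in complex IV and 17 in complex V. SDHA had 2 records, and the one with the higher mean level was kept.

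RNA was profiled by polyA RNA-Seq in neural progenitors made from the established embryonic stem cell line H1 (human), so a single line stands behind every value. Day 0 cells were proliferating progenitors in medium with FGF on Matrigel, and neural differentiation was started by taking FGF away and giving BDNF. Cells were collected after 1, 2 and 4 days. The later cells, of days 5, 11 and 18, had moved onto poly-D-lysine and laminin on day 4, and a change of surface therefore lies between days 4 and 5. The labels list 3 replicates for each day except day 5, which has 2, and give no genotype or treatment beyond this medium change.

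The deposited values are FPKM, fragments scaled to transcript length and to all mapped fragments, with 1 authors' value per record and day estimated over the replicates of that day. No spread between replicates can therefore be given, no difference below carries a test, and the depth behind each value is unknown. The progenitor gene NES was lower at the end of the course (513 FPKM at day 0 and 180.4 at day 18). Of the other progenitor genes listed, SOX2 went from 126 to 66.1 FPKM and MSI1 from 47.8 to 35.2. PAX6 went the other way, from 4.31 to 10.4 FPKM. The neuronal genes DCX and STMN2 were higher at day 18 than at day 0 (5.46 and 88.0 FPKM for DCX, 32.3 and 727 for STMN2). The pluripotency genes POU5F1 and NANOG were below 0.1 FPKM on both days. The mesenchymal collagen genes COL1A2 and COL3A1 went from 33.6 and 238 FPKM at day 0 to 3.81 and 30.5 at day 18, while COL1A1 was listed at 0, and the part of such cells in the members' values was not tested. In RNA from whole cultures, fewer cells of a type and less RNA per cell cannot be told apart.

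Oxidative phosphorylation takes place in the inner mitochondrial membrane. Complex I (NADH dehydrogenase) and complex II (succinate dehydrogenase) pass electrons to ubiquinone, complex III (cytochrome bc1) passes them to cytochrome c, and complex IV (cytochrome c oxidase) to oxygen, while complexes I, III and IV pump protons. Complex V, the ATP synthase, uses the proton gradient to make ATP, on which neurons depend heavily, and the differentiation of progenitors into neurons is commonly described as a move from glycolysis towards oxidative metabolism. Most subunits are encoded in the nucleus, and these are the genes measured here. A few core subunits are encoded in mitochondrial DNA, and these were not analysed here.

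The symbol rule is wider than the complexes. Of the 86 symbols, 75 name regular subunits and 11 do not: isoforms of restricted tissues such as COX6A2 and COX7B2, and the genes COX4NB, ATP5S, ATP5SL, COX7A2L and NDUFA4L2, which resemble subunit genes in name or sequence. COX4NB is an older name for EMC8, a subunit of the endoplasmic reticulum membrane complex that lies beside COX4I1. UQCR is the older name of UQCR11. A mean of at least 1 FPKM over the 7 days was reached by 79 members, 38 in complex I, 4 in II, 8 in III, 12 in IV and 17 in V. The other 7 were NDUFA4L2, COX4I2, COX6A2, COX6B2, COX7A1, COX7B2 and COX8C, which were at most 1.10 FPKM on every day.

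The subunit genes were abundant and their transcripts short. Their median of mean FPKM was 55.9, against 10.9 for the 11793 coding records that reached 1 FPKM, and 78 of the 79 had a mean of 10 FPKM or more, a level that 53.0% of those coding records reached. The median transcript length was 1058 bases against 2610, and 46.8% of the members had a median transcript under 1000 bases against 5.71% of coding records. Together they took 2.17% of the summed FPKM of coding records on day 0, and in order of the later days 2.04%, 1.97%, 2.13%, 2.20%, 2.15% and 2.01%. The share thus kept between 1.97% and 2.20%, while the summed FPKM of the members went from 7791 at day 0 to 4343 at day 18.

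That difference matters for every fold change. FPKM of coding records summed to 358744 at day 0 and 216151 at day 18, and the median change of all 14443 coding and noncoding records with a mean of at least 1 FPKM was -0.56 on the log2(FPKM + 0.1) scale. A change as deposited is used below for the plain difference in log2(FPKM + 0.1), and an adjusted change for the same difference with the median of those 14443 records taken off. The pseudocount of 0.1 leaves changes of genes at these levels nearly untouched. A gene is counted as past 1.5-fold by its adjusted change unless stated otherwise.

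From day 0 to day 18 the median adjusted change of the 79 members was -0.33 (quartiles -0.52 and -0.08), with 64 members lower and 15 higher. Of all coding records 52.0% were lower, beside 81.0% of the members. As deposited, the median was -0.88, and 77 of 79 members were lower, where 8979 of 11793 coding records were. By adjusted change, 15 members (19.0%) were past 1.5-fold lower, against 24.1% of all coding records, and 1 member (1.27%), NDUFA5, was past 1.5-fold higher, against 22.9%. Those 15 were NDUFA9, NDUFA12, NDUFB3, NDUFB6, NDUFB9, NDUFS5, NDUFS6, SDHB, CYC1, UQCRH, COX8A, COX4NB, ATP5G1, ATP5G3 and ATP5J2. As deposited, 63 members (79.7%) were past 1.5-fold lower, where 50.8% of coding records were, and 0 were past 1.5-fold higher, where 11.9% were. The counts depend on the centre: with the median of coding records of at least 10 FPKM taken off instead, the members' median was -0.16, 2 members were past 1.5-fold lower and 4 were higher, and with a pseudocount of 1 NDUFA5 was no longer past 1.5-fold. The members' median was below 0 on each of these scales, and the share past 1.5-fold in either direction by adjusted change was below that of all coding records.

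Abundant coding genes as a class had a like median. The 1895 other coding records with a mean FPKM between 30 and 300 had a median adjusted change of -0.32, beside -0.31 for the 63 members in that window. Lower by adjusted change were 67.3% of these other records and 81.0% of those members. As deposited, 1664 of 1895 and 63 of 63 were lower. The spread between genes differed in size, with a standard deviation across genes of 0.93 for the other records and 0.32 for the members. Genes are not replicates, and no test of this difference in spread was made.

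**Figure D1:**
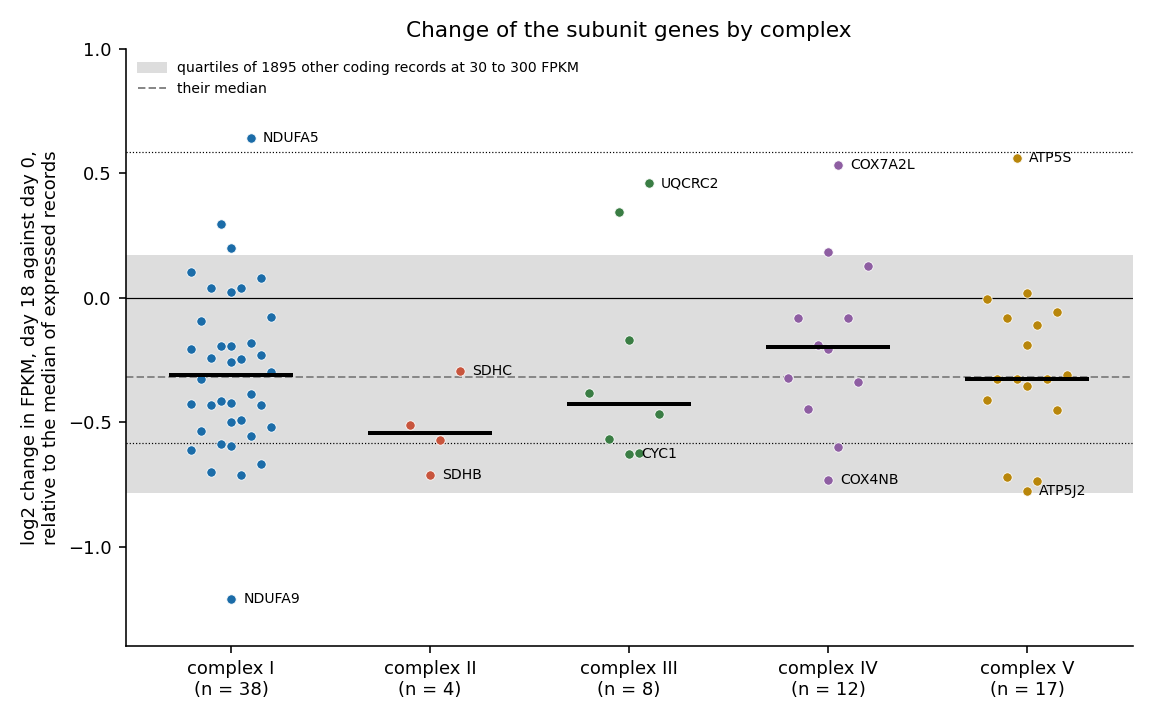
Adjusted log2 change in FPKM from day 0 to day 18 (vertical axis, relative to the median of expressed records) for each of the 79 members, 1 point per gene, by complex. Thick bars are medians, dotted lines mark 1.5-fold, and the grey band and dashed line give the quartiles and the median of 1895 other coding records at 30 to 300 FPKM. Complex II has the lowest median, -0.54, and complex IV the highest, -0.20, and NDUFA9 and NDUFA5 lie farthest from the rest of complex I.

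By complex, the median adjusted change from day 0 to day 18 was -0.31 for complex I, -0.54 for complex II, -0.43 for complex III, -0.20 for complex IV and -0.33 for complex V. As deposited the same medians were -0.87, -1.10, -0.98, -0.76 and -0.88. Lower members numbered 30 of 38 in complex I, 4 of 4 in complex II, 6 of 8 in complex III, 9 of 12 in complex IV and 15 of 17 in complex V by adjusted change. The share lower was 52.0% over all coding records and 67.3% over the other records at 30 to 300 FPKM. With 4 genes in complex II and a range within complex I from -1.21 to 0.64, the distances between the complexes' medians were smaller than the range of genes inside complexes I, III, IV and V, and none of them was tested. With the median of coding records of at least 10 FPKM taken off instead, the median of complex IV was -0.03 and that of complex II -0.38. Levels also differed: at day 0 the median FPKM was 65.4 in complex I, 30.2 in complex II, 69.3 in complex III, 178 in complex IV and 86.5 in complex V, and complex II was the lowest and complex IV the highest on each of the 7 days.

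In complex I, the entry point for electrons from NADH, NDUFA9 changed most. This accessory subunit helps hold the peripheral arm to the membrane arm, and its record lies at chr12:4758283-4796397 (hg19, plus strand). NDUFA9 was at 49.4, 31.3, 29.2, 35.7, 36.1, 22.9 and 14.4 FPKM on the 7 days in order (0, 1, 2, 4, 5, 11, then 18), an adjusted change of -1.21 and a level at day 18 that was 29.2% of day 0. It was lowest at day 18 and below its day 0 value throughout, with a partial return at days 4 and 5. The antisense noncoding record that shares 22.6% of its exon bases stayed below 1 FPKM at days 0 and 18.

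NDUFA5 went the other way. It encodes another accessory subunit of the peripheral arm, and its record lies at chr7:123181084-123197958 (minus strand). Its values were 24.7, 22.1, 22.5, 26.9, 26.9, 27.0 and 26.1 FPKM in day order, so that its deposited level changed little (0.08 on the log2 scale) while that of most genes went down, with an adjusted change of 0.64. NDUFA5 is also a gene with 12 named pseudogenes in RefSeq, from which its reads may not be told apart.

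The promoters of these 2 genes are shown because they carried the extreme changes of complex I, at opposite ends. Each is a 300-base window, 250 bases before to 50 after a RefSeq transcript start (RefSeq windows of GRCh38.p14, matched exactly to hg19 here), 5′ to 3′ on the gene's strand. Capitals mark matches to 3 words searched on both strands: GCGCATGCG, the core bound by NRF1; CCGGAAG, bound by ETS factors such as GABPA; and AAGATGG, bound by YY1. None of the 3 words contains another. NDUFA9 is shown at chr12:4758030-4758329, and NDUFA5 at chr7:123197823-123198122, the one of its 3 RefSeq windows that overlaps the record's start.
NDUFA9: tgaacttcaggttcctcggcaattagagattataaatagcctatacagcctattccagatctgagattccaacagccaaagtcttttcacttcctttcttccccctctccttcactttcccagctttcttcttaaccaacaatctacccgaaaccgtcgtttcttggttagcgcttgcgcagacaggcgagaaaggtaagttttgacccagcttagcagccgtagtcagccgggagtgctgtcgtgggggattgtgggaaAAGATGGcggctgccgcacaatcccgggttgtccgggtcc
NDUFA5: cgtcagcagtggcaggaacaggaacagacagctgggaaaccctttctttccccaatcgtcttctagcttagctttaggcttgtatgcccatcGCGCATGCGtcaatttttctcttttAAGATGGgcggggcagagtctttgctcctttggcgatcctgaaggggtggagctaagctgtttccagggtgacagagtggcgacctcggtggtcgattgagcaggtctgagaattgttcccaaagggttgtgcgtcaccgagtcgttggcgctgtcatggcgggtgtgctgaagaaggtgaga
Each window holds AAGATGG, just after the start of transcription in NDUFA9 and upstream of it in NDUFA5, and the window of NDUFA5 also holds GCGCATGCG.

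These factors are known activators of nuclear genes for mitochondrial proteins. RefSeq windows were given for 70 of the 86 members, 84 windows in all. The word GCGCATGCG was in 13.1% of the members' windows and in 2.36% of the 22183 windows of protein-coding genes, CCGGAAG in 26.2% against 12.8%, and AAGATGG in 22.6% against 6.04%. Members with and without a word had like changes: the median adjusted change from day 0 to day 18 was -0.24 with GCGCATGCG (11 genes) and -0.33 without (54 genes), -0.33 and -0.32 for CCGGAAG (21 and 44 genes), and -0.32 and -0.33 for AAGATGG (18 and 47 genes). These counts describe letters in a window and not binding.

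Next to NDUFA9, the lowest adjusted changes in complex I were those of NDUFB3, a subunit of the membrane arm, and NDUFS6, a zinc-binding subunit of the peripheral arm. NDUFB3 (chr2:201936462-201950471) was at 46.1, 30.7, 28.6, 30.8, 31.2, 28.7 and 19.0 FPKM in day order, an adjusted change of -0.71. NDUFS6 (chr5:1801509-1816163) was at 159.7, 119, 127, 129, 129, 101 and 66.7 FPKM, an adjusted change of -0.70. Both were at their lowest on day 18 and at their highest on day 0.

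On the other side stood NDUFA10, an accessory subunit of the membrane arm, and NDUFS7, which holds an iron-sulfur cluster of the electron path. NDUFA10 (chr2:240900158-240964798) was at 37.4, 44.5, 46.4, 42.3, 37.7, 36.6 and 31.1 FPKM, with its highest value at day 2 and an adjusted change of 0.30. NDUFS7 (chr19:1383526-1395587) was at 31.5, 31.4, 33.9, 32.4, 30.8, 29.9 and 24.6 FPKM, an adjusted change of 0.20. Both of these deposited levels were lower at day 18 than at day 0, so the sign of the change depends on the overall shift.

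The most abundant member of complex I was NDUFS5, an accessory subunit, and the least abundant was NDUFV2, a core subunit that carries an iron-sulfur cluster. NDUFS5 was at 234, 137, 135, 153, 170.3, 152 and 104 FPKM in day order, with its lowest adjusted step, -0.68, within the first day. NDUFV2 was at 18.0, 12.5, 12.8, 13.5, 14.0, 11.5 and 9.12 FPKM. NDUFS5 was past 1.5-fold lower from day 0 to day 18 by adjusted change, at -0.61, and NDUFV2 was not, at -0.41.

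Complex II is the one complex that also belongs to the citric acid cycle, and its 4 subunits are all nuclear. SDHB, the iron-sulfur subunit (chr1:17345227-17380665, minus strand), was at 40.4, 26.9, 29.7, 26.6, 26.0, 18.0 and 16.7 FPKM in day order, an adjusted change of -0.71. SDHA, the flavoprotein that oxidises succinate (chr5:218356-256812), was at 36.1, 30.4, 31.8, 28.2, 25.6, 20.4 and 16.5 FPKM, an adjusted change of -0.57. The RNA of these 2 genes, whose proteins form the catalytic head, had reached about the same level by day 18.

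The membrane anchors were less abundant. SDHD (chr11:111957571-111966517) was at 18.3, 18.1, 18.0, 17.9, 16.2, 12.4 and 8.66 FPKM, nearly flat to day 4 and then lower, an adjusted change of -0.51. SDHC (chr1:161284166-161334533) was at 24.3, 20.4, 20.4, 23.5, 23.0, 19.4 and 13.4 FPKM, an adjusted change of -0.30. All 4 genes were at their lowest on day 18. From day 5 to day 11 all 4 were lower by adjusted change, with a median of -0.20, where the median of all members over that step was -0.02. SDHA and SDHC have 4 named pseudogenes each and SDHD has 6.

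The promoter of SDHB is given as that of the complex II gene past 1.5-fold lower, at chr1:17380478-17380777 and with the same capitals.
SDHB: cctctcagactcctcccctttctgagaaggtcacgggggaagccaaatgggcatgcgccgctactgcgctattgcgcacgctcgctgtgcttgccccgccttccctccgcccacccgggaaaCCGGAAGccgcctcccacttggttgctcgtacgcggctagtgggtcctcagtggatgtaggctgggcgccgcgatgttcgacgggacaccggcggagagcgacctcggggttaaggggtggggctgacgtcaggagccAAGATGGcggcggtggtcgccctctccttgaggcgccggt
It holds CCGGAAG upstream and, just after the start of transcription, AAGATGG.

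In complex III, which moves electrons from ubiquinol to cytochrome c, 6 of 8 genes were lower by adjusted change. CYC1, the cytochrome c1 heme protein, was at 76.3, 63.9, 65.7, 64.3, 57.2, 45.0 and 33.4 FPKM, an adjusted change of -0.63. UQCRH, the hinge protein that sits beside cytochrome c1 (chr1:46769380-46782445), was at 175, 123, 127, 140.5, 133, 107 and 77.2 FPKM, an adjusted change of -0.62, and was the most abundant gene of the complex. UQCRC1, one of the core proteins (chr3:48636432-48647098), was at 105, 80.1, 83.2, 78.8, 69.5, 63.4 and 47.9 FPKM, an adjusted change of -0.57. All of these were highest at day 0 and lowest at day 18.

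UQCRC2, the partner core protein of UQCRC1 (chr16:21964609-21994666), differed from it. Its values were 69.4, 67.5, 75.9, 72.4, 66.4, 71.4 and 64.8 FPKM in day order, an adjusted change of 0.46 and a deposited change of -0.10. The order of the RNA levels of these 2 genes turned over in this way: UQCRC1 was above UQCRC2 at day 0 and below it at day 18. Noncoding records share 84.0% of the exon bases of UQCRC1 and 27.0% of those of UQCRC2. Their mean levels were 0.252 and 4.12 FPKM. UQCRB, a ubiquinone-binding subunit and the least abundant of the complex, was at 13.6, 12.7, 14.3, 15.4, 12.8, 14.0 and 11.7 FPKM, an adjusted change of 0.34, and UQCR, a small subunit, was at 31.0, 25.5, 25.1, 26.1, 25.2, 23.9 and 18.6 FPKM, an adjusted change of -0.17. The remaining genes UQCRFS1 (the Rieske iron-sulfur protein) and UQCRQ had adjusted changes of -0.47 and -0.38.

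The promoter of UQCRC2 is shown since this gene kept its deposited level (chr16:21964432-21964731, plus strand).
UQCRC2: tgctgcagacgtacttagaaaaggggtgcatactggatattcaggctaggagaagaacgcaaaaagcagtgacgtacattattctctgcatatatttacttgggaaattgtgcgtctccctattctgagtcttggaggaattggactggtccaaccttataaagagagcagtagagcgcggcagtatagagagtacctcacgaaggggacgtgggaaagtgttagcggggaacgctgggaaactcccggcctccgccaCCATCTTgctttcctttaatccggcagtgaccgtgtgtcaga
It holds the reverse complement of AAGATGG just after its start.

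Complex IV, the terminal oxidase, had the highest levels and the smallest median change. COX8A, the ubiquitous form of a small membrane subunit (chr11:63742079-63744014) and the most abundant gene of the complex, was at 333, 271, 254, 273, 262, 218 and 149 FPKM, an adjusted change of -0.60. COX7B, another small subunit (chrX:77154961-77160881), was at 176, 99.2, 93.0, 113, 124, 120.2 and 87.6 FPKM, an adjusted change of -0.45. Its adjusted change from day 0 was already -0.73 at day 1 and -0.88 at day 2, and it was -0.39 at day 5. COX4NB, the EMC8 gene and no subunit of the oxidase, was the lowest and had the largest change, with 21.9, 14.4, 14.6, 14.5, 12.7, 10.4 and 8.89 FPKM and an adjusted change of -0.73. Its neighbour COX4I1, the main regulatory subunit, was at 216, 182, 199.8, 203, 193, 169.8 and 138 FPKM, an adjusted change of -0.08.

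COX5B and COX7C stood above 0 by adjusted change among the regular subunits. COX5B, a zinc-binding subunit on the matrix side (chr2:98262521-98264656), was at 113, 129, 145, 158, 148, 119 and 83.9 FPKM, with its highest value at day 4 and an adjusted change of 0.13. COX7C, a small membrane subunit (chr5:85913784-85916581), was at 202, 167, 184, 194, 184, 189 and 156 FPKM, an adjusted change of 0.18. As deposited, both were lower at day 18 than at day 0, with log2 changes of -0.43 for COX5B and -0.38 for COX7C. COX6C, which has no tissue isoform in the set and 17 named pseudogenes, was at 218, 150.4, 149, 176, 194, 172 and 130.0 FPKM.

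Of the 17 genes counted with complex V, the ATP synthase, 15 were lower by adjusted change. Among the 17 are ATP5S and ATP5SL, which do not name regular subunits. The catalytic subunit ATP5B (chr12:57031961-57039852), the most abundant member of all, was at 375, 326, 319, 309.7, 301, 259 and 199 FPKM, an adjusted change of -0.36. Its partner in the F1 head, ATP5A1 (chr18:43664110-43684199), was at 267, 228, 239, 246, 217, 232 and 184 FPKM, an adjusted change of 0.02. ATP5D, of the central stalk, was at 45.3, 43.7, 45.6, 45.5, 42.3, 40.9 and 30.7 FPKM, an adjusted change of -0.00. The 5 genes of the F1 head and central stalk (ATP5A1, ATP5B, ATP5C1, ATP5D and ATP5E) had a median adjusted change of -0.19, the 4 of the peripheral stalk (ATP5F1, ATP5H, ATP5J and ATP5O) -0.32, and the 3 of the c ring -0.72. Of those 3, ATP5G1 was at -0.74, ATP5G3 at -0.72 and ATP5G2, which held most of their FPKM, at -0.11. Their summed FPKM went from 376 at day 0 to 202 at day 18, and that of all 17 genes from 2402 to 1345.

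The largest change within complex V was that of ATP5J2, a subunit of the membrane part (chr7:99016751-99063808, in a record merged with PTCD1), at 163, 106, 100.5, 113, 114, 94.6 and 64.4 FPKM, an adjusted change of -0.78. ATP5S, which is not a subunit of the enzyme proper and was the least abundant member, was at 5.26, 5.40, 5.92, 6.81, 5.64, 6.41 and 5.27 FPKM, an adjusted change of 0.56 at an unchanged deposited level. The remaining genes counted with complex V, ATP5I, ATP5C1, ATP5J, ATP5H, ATP5SL, ATP5F1, ATP5E, ATP5O and ATP5L, had adjusted changes between -0.45 and -0.06.

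The c ring, which turns as protons pass, is encoded by ATP5G1, ATP5G2 and ATP5G3, whose mature proteins are the same. ATP5G1 (chr17:46970148-46973230) was at 74.7, 37.8, 32.6, 45.0, 50.5, 44.8 and 30.4 FPKM in day order, ATP5G3 (chr2:176040987-176046490) at 79.5, 48.5, 47.3, 49.1, 48.5, 43.3 and 32.6, and ATP5G2 (chr12:54058945-54070512) at 222, 235, 234, 257, 219.6, 218 and 139. ATP5G1 had the lowest adjusted change of all members at the first step, -0.89, while ATP5G2 was not below its day 0 level until day 5. ATP5G2 made up 59.0% of the FPKM of the set on day 0, then 73.1% (day 1), 74.6% (day 2) and finally 68.9% (day 18), and ATP5G1 went from 19.9% to 11.8%, 10.4% and 15.0% on the same days. ATP5G1 and ATP5G3 share all or 95.1% of their exon bases with antisense noncoding records, whose levels were at most 1.64 FPKM at days 0 and 18.

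Their promoters are shown because these paralogs encode 1 mature protein and their levels had unlike courses (ATP5G1, RefSeq ATP5MC1, at chr17:46969899-46970198; ATP5G2, RefSeq ATP5MC2, at chr12:54069818-54070117, 1 of its 3 windows).
ATP5G1: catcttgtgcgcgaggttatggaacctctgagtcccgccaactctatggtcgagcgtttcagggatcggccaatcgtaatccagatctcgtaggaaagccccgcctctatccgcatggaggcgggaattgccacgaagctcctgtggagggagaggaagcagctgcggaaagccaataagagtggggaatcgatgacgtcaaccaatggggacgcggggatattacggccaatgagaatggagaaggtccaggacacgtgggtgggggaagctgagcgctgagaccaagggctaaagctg
ATP5G2: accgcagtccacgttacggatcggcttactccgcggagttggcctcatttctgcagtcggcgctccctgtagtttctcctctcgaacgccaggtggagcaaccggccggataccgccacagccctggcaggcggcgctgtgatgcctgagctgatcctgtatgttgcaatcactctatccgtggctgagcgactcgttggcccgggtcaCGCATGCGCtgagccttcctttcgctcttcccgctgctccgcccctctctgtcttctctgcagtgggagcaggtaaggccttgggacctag
The window of ATP5G2 shown holds the NRF1 word and was chosen with the matches known. The other windows of ATP5G2 hold none of the 3 words, and neither does that of ATP5G1.

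**Figure D2:**
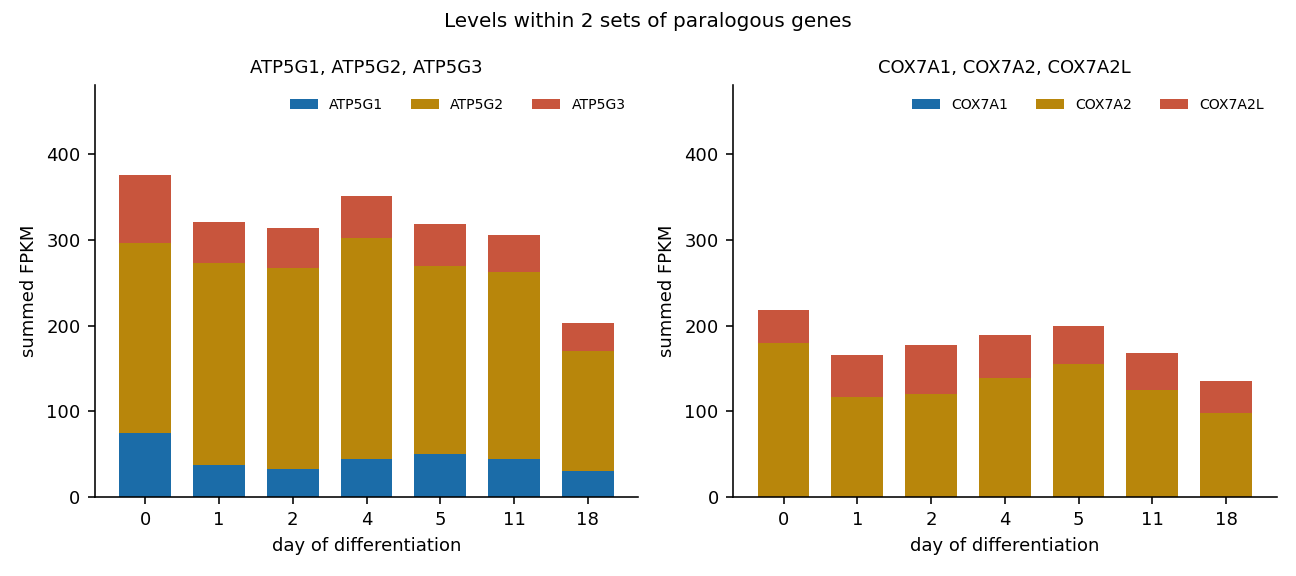
FPKM by day for the 3 genes of the ATP synthase c ring (left) and the 3 genes of the COX7A set (right), stacked, 1 authors' value per gene and day. ATP5G2 fills 59.0% of its bar at day 0 and 73.1% at day 1, and COX7A2L fills 17.3% and 29.5% of the COX7A bar on those days.

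Other sets were dominated by the ubiquitous form. COX4I1, COX6A1, COX6B1, COX7B and COX8A made up over 99.9% of the FPKM of their sets on each day, and their tissue-restricted partners COX4I2, COX6A2, COX6B2, COX7B2 and COX8C were at most 0.113 FPKM. COX6A1 was at 90.6, 86.2, 79.4, 88.1, 90.0, 76.3 and 58.1 FPKM and COX6B1 at 198, 138, 138, 155, 169.8, 154 and 116 FPKM in day order. In the COX7A set, the muscle form COX7A1 was at most 0.134 FPKM and COX7A2, the widely expressed form (chr6:75947503-75953525), was at 180.0, 117, 121, 138, 155, 125 and 97.8 FPKM. COX7A2L, known for its part in joining complexes III and IV into supercomplexes (chr2:42577647-42596150), was at 37.7, 48.7, 56.9, 50.7, 44.3, 42.9 and 37.1 FPKM, so its share of the set went from 17.3% on day 0 to 32.1% on day 2, and was 27.5% on day 18. NDUFA4 is now counted with complex IV, but by its symbol it was kept in complex I in all counts and medians above. Moving it gave medians from day 0 to day 18 of -0.33 for complex I and -0.19 for complex IV. NDUFA4 was at 66.1, 43.8, 42.6, 54.4, 54.3, 56.3 and 39.2 FPKM. NDUFA4L2, a hypoxia-responsive paralog, was at 0.258 FPKM on day 0, 1.10 on day 1 and 0.999 on day 18. ATP5L was at 59.7, 44.4, 49.8, 55.2, 51.9, 48.3 and 38.9 FPKM, and no record was found for ATP5L2.

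Most of the change came at the first and the last step. From day 0 to day 1 the median adjusted change of the members was -0.20, with 65 lower and 14 higher. At this step 51.3% of all coding records were lower, and 67.1% of the other records at 30 to 300 FPKM. Past 1.5-fold lower were 4 members (5.06%), ATP5G1, ATP5G3, COX7B and NDUFS5, where 9.22% of coding records were. Past 1.5-fold higher were 0, where 12.2% of coding records were. From day 1 to day 2 the members' median was -0.02 (33 higher, 46 lower), and from day 2 to day 4 it was 0.09 (63 higher, 16 lower). Of all coding records 50.4% were lower at the first of these steps and 49.0% higher at the second. No member was past 1.5-fold at either step, where 0.958% and 0.839% of coding records were past it higher and lower from day 1 to day 2, and 1.33% and 2.93% from day 2 to day 4.

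Across the replating, between days 4 and 5, the median adjusted change was 0.00, and from day 5 to day 11 it was -0.02. No member was past 1.5-fold, against 2.59% of coding records higher and 0.687% lower at the first of these steps and 7.03% and 7.19% at the second. From day 11 to day 18 the median was -0.14, with 70 lower and 9 higher, and all 17 genes counted with complex V were lower. Of all coding records 50.0% were lower, and 62.4% of the other records at 30 to 300 FPKM. No member was past 1.5-fold at this last step either, where 6.39% of coding records were higher and 5.55% lower. As deposited, the median from day 11 to day 18 was -0.42. The steps share days, so the values are not independent of each other.

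**Figure D3:**
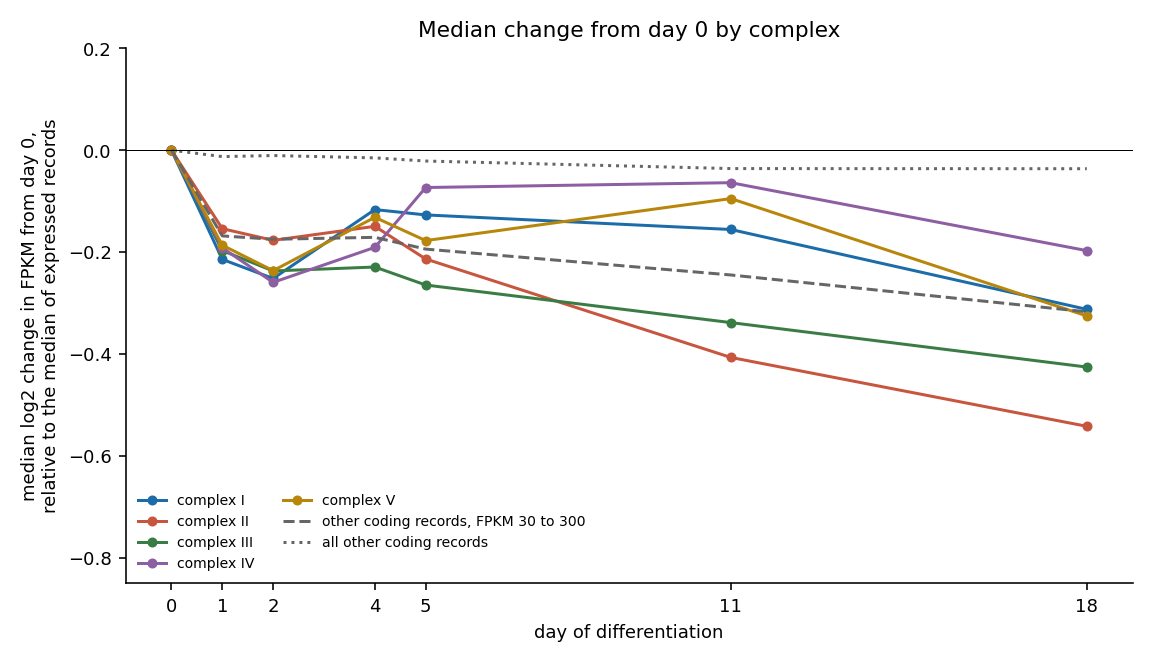
Median adjusted log2 change in FPKM from day 0 (vertical axis) by day of differentiation (horizontal axis) for the 5 complexes, with 1895 other coding records at 30 to 300 FPKM (dashed) and all other coding records (dotted). All complexes are below 0 from day 1 on, complexes I, IV and V come back towards 0 between days 2 and 11, and complex II is lowest from day 11 on, at -0.41 and then -0.54.

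The order of the complexes' medians differed between days and was not tested. At day 2 their medians lay between -0.18 for complex II and -0.26 for complex IV, and at day 11 between -0.41 for complex II and -0.06 for complex IV. The like-abundant coding records stayed near -0.17 from day 1 to day 4 and reached -0.25 at day 11, so that complexes I, IV and V were above them at day 11 and complexes II and III below. At day 18 these records were at -0.32, beside -0.31 for complex I and -0.33 for complex V. Of the 79 members, 53 were lower at the first step, higher from day 2 to day 4 and lower at the last step by adjusted change, a pattern seen in 16.3% of coding records. As deposited, the highest level was on day 0 in 61 members (77.2%) and the lowest on day 18 in 77 (97.5%), against 44.8% and 66.0% of all coding records, whose FPKM were also mostly lower at day 18.

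**Figure D4:**
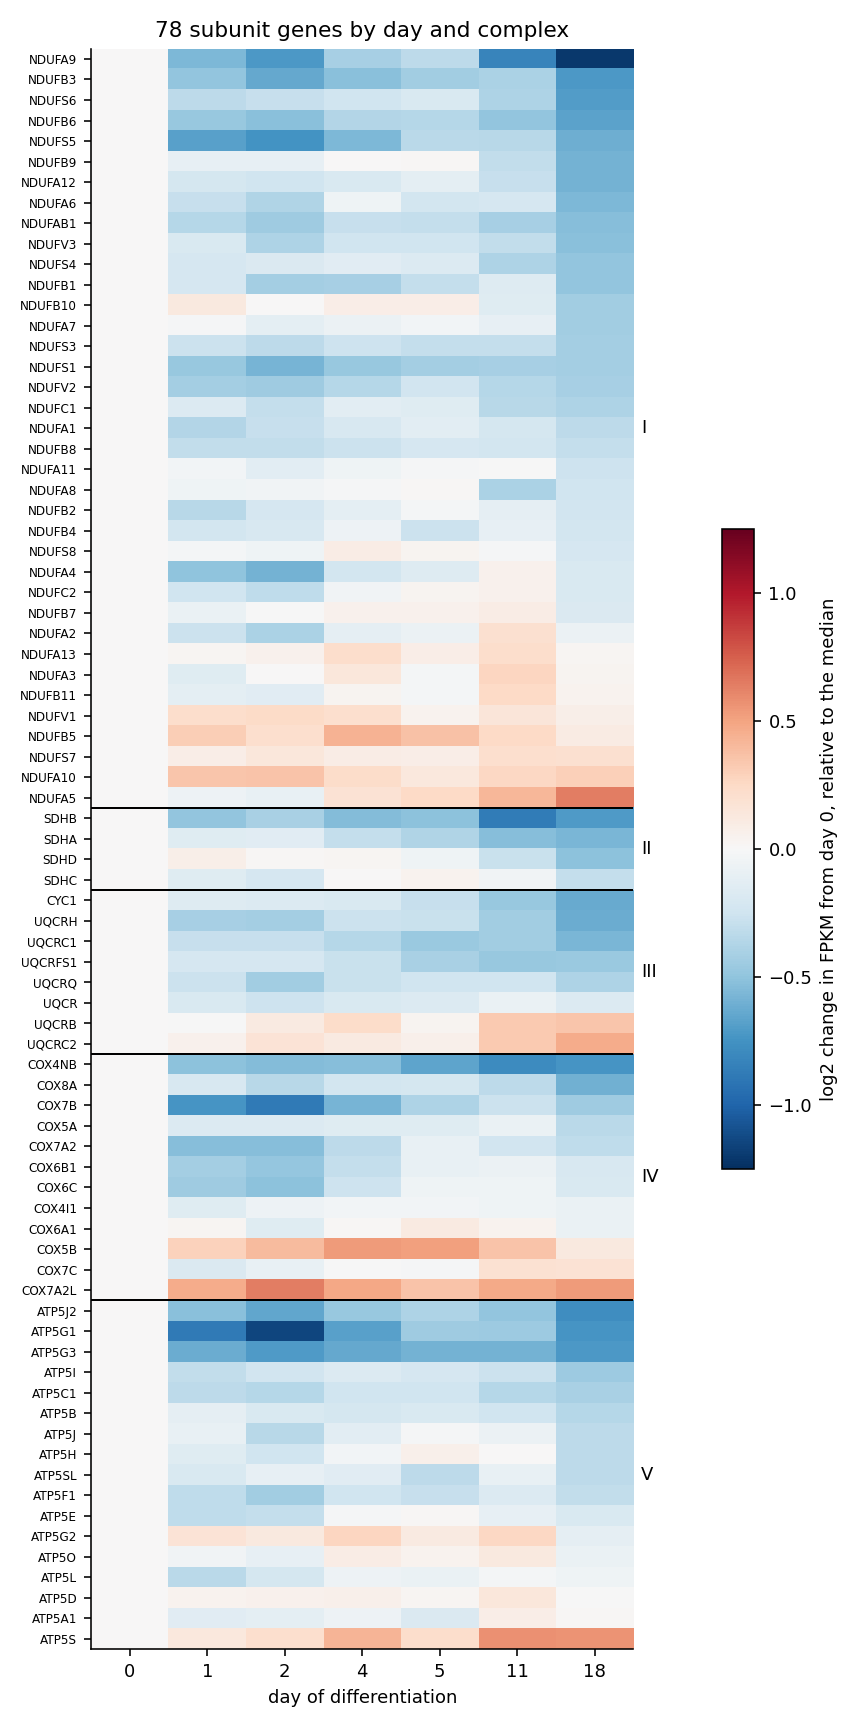
Adjusted log2 change in FPKM from day 0 (colour, blue lower and red higher) for 78 of the members (rows, by complex and within each by their change at day 18) on the 7 days (columns). Most rows turn blue at days 1 and 2, pale at days 4 and 5 and blue again at day 18, while NDUFA5, UQCRC2, COX7A2L and ATP5S are red at day 18.

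The correlation over the 7 days between a member's log2(FPKM + 0.1) and the mean of the others had a median of 0.943, and it was above 0.9 in 53 of 79, or 67.1%. For 6168 other coding records with a mean of at least 10 FPKM, the median correlation with the members' mean was 0.846 and 36.8% were above 0.9, and the lower FPKM of most records at later days enters every such value. The lowest correlations were those of NDUFA5 (-0.20), ATP5S (0.17), COX7A2L (0.30) and UQCRC2 (0.45). Outside the list, the coding records most like the members' mean profile were WDR33, FKBP3, TIMM17B, C20orf27 and AAAS, with correlations of 0.997 to 0.998 over the 7 days. FKBP3, for example, went from 72.1 FPKM on day 0 through 55.7 (day 1) and 63.4 (day 4) to 33.7 on day 18.

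Other gene lists tied to mitochondrial energy supply are given for context. Beside their counts, 24.1% of all coding records were past 1.5-fold lower from day 0 to day 18 and 22.9% higher. Respiratory chain assembly factors, which build the complexes but stay outside them, had a median adjusted change from day 0 to day 18 of -0.14 over 34 genes, with 6 past 1.5-fold lower and 1 higher. Among them NDUFAF2 went from 17.7 to 5.18 FPKM and SCO1, a copper chaperone for complex IV, from 18.1 to 7.37, while the record that holds COX19, merged with the neighbouring gene ADAP1 so that the value cannot be assigned to either, went from 3.85 to 7.70 and was the 1 past 1.5-fold higher. Citric acid cycle and pyruvate dehydrogenase genes had a median of -0.17 over 17 genes, with 4 past 1.5-fold lower and 0 higher, and fumarase (FH), the enzyme after succinate dehydrogenase, went from 41.7 to 13.9 FPKM.

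Genes that regulate mitochondrial biogenesis had a median of -0.44 over 12 genes, 5 of them past 1.5-fold lower and 0 higher. TFAM, which packages mitochondrial DNA and takes part in its transcription, went from 32.8 to 11.6 FPKM and PPRC1, a coactivator, from 21.3 to 6.00, whereas PPARGC1A was at 2.45 and 2.39. The list's filter was not met by PPARGC1B and by ESRRG, a nuclear receptor. ESRRG went from 0.161 to 1.79 FPKM and PPARGC1B from 0.504 to 0.103. Mitochondrial ribosomal protein genes, needed to make the mitochondrially encoded subunits, had a median of -0.61 over 76 genes, with 41 past 1.5-fold lower and 0 higher.

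The carrier list had a median of -0.35 over 9 genes, 3 past 1.5-fold lower and 1 higher. That one was SLC25A4, the ADP/ATP translocase of heart and muscle, which went from 18.1 to 24.1 FPKM, while the translocase of dividing cells, SLC25A5, went from 167.6 to 62.3. SLC25A6, the most abundant translocase of the list on both days, went from 213 to 143 FPKM, an adjusted change of -0.01. Cytochrome c (CYCS) went from 28.1 to 14.1. Glycolysis enzymes had a median of -0.42 over 17 genes, with 6 past 1.5-fold lower and 3 higher, and from day 11 to day 18 their median was 0.51 where that of the members was -0.14. Neuronal enolase ENO2 went from 9.56 to 58.5 FPKM and ENO1 from 1148 to 376. Cytosolic ribosomal protein genes had a median of 0.22 over 84 genes. The lists were chosen with earlier results known and no test between them was made.

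**Figure D5:**
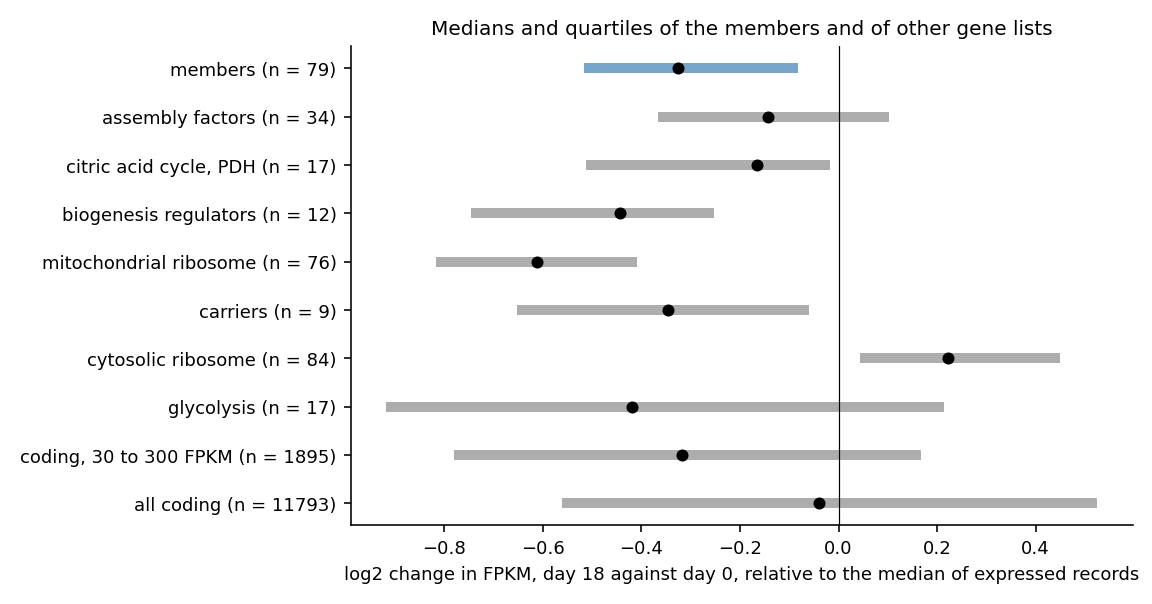
Median (point) and quartiles (bar) of the adjusted log2 change in FPKM from day 0 to day 18 for the 79 members, for 7 other gene lists and for coding records. The members' median of -0.33 lies between that of the mitochondrial ribosomal proteins, -0.61, and those of assembly factors, -0.14, and cytosolic ribosomal proteins, 0.22.

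Transcript length and neighbouring records bear on these values. FPKM of short transcripts depends on the fragment length model. The 22 members with a median transcript under 600 bases had a median adjusted change of -0.33 from day 0 to day 18, where the 102 other coding records of that length had -0.20, and at the first step the values were -0.29 and 0.02. In the 15 members of 600 to 1000 bases the change from day 0 to day 18 was -0.41 against -0.26 for 534 other records, in the 33 of 1000 to 2000 bases, the largest class, it was -0.19 against -0.17 for 3062, and the 9 members of 2000 bases or more had -0.30 against 0.03 for 8016 other records. Across the members, transcript length and adjusted change had a Pearson correlation of 0.21 and a Spearman correlation of 0.18, or 0.15 and 0.13 without the 2 members farthest in length. These are across genes, which are not independent replicates.

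Over 10% of exon bases were shared with another record in 40 members. In 36 of those the partner was noncoding, mostly an antisense record, and 1 of the 42 partner records had a higher mean FPKM than its member. Without strand-specific counting, reads in such a stretch cannot be assigned by strand. Without those members, the median adjusted change over the 42 that remained was -0.24, and 8 of them were past 1.5-fold lower, an alternative chosen after the data were seen. Of the 86 symbols, 7 lay in records merged with a neighbouring gene, among them NDUFS3 with PTPMT1, NDUFB8 with SEC31B and ATP5O with CRYZL1 and DONSON, so that their values may hold reads of both. Named pseudogenes, 185 in all, exist for 47 members.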

How the data were processed

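Libraries were made from polyA RNA with the TruSeq kit and sequenced as paired reads, per the labels and the study's methods. The authors ran TopHat2 against hg19, then Cufflinks for assembly and Cuffdiff2 for expression levels; versions are not given in the sources used here. The deposited FPKM matrix holds 1 value per gene record and day, which the authors estimated over the 20 samples, and 0 columns of single samples. The deposited comparison table also holds the authors' fold changes, statistics, p-values and q-values for adjacent days. These were not used. Gene names and exon positions were taken from that table, in hg19.

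From the FPKM values, changes in log2(FPKM + 0.1) were computed with Python 3.11.15, pandas 2.3.3 and numpy 2.4.6, and drawn with matplotlib 3.10.9. Records with a mean of at least 1 FPKM entered the medians. An adjusted change has the median of those records taken off, and past 1.5-fold refers to it. With 1 value per day no test was fitted, so changes are described by counts and medians beside those of all coding records. The computation was tested on simulated data. Genes named with all values were, per complex, the 3 largest changes in each direction, the highest and lowest by mean FPKM, every SDH gene, the isoform sets and COX6C, which was listed with them. ATP5MC1, ATP5MC2 and the other current names came from RefSeq, in which all 86 symbols were found. The members and lists were chosen with earlier results of these data known. Alternatives covered the pseudocount, the filter, the centring, the record chosen per symbol, the set of members, the days compared and the fold threshold. Values of 1 member are not reported here by name, although it is counted in the medians and counts.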

Additional observations from a re-analysis of the deposited data

How the results depend on the processing

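No paired analysis was possible because the files hold 1 value per day, estimated over its replicates, and leaving out a replicate was impossible for the same reason. A value was taken as moved when it differed from the reported one by over 0.1 on the log2 scale, or a count by over 1.5 times. Over 13 alternatives, 52 values kept within these limits and 40 moved. Of the moved values, 2 changed sign, both for complex IV, whose median came just above 0 with no filter and between day 4 and day 18. The medians for all members and complexes I to V are given in that order. As deposited they were -0.8841, -0.8713, -1.101, -0.9845, -0.7559 and -0.8841, with 63 members past 1.5-fold lower and 0 higher. Centred on coding records with a mean of at least 10 FPKM they were -0.1625, -0.1497, -0.3792, -0.263, -0.03429 and -0.1625, with 2 lower and 4 higher. Between day 4 and day 18 they were -0.1393, -0.1518, -0.2575, -0.1233, 0.003929 and -0.1344, with 1 lower and 0 higher. Between day 0 and day 11, the medians were -0.1088 for all members, -0.1557 for complex I, -0.4069 for II, -0.06383 for IV and -0.09503 for V, with 4 lower and 0 higher. With no filter on low values, complex IV was at 0.02235 and 4 members were higher, since records at or near 0 entered. A pseudocount of 1 left 0 higher, and a 2-fold threshold left 1 lower and 0 higher. Leaving out members that shared over 10% of exon bases, chosen after seeing the data, gave -0.2954 for complex II, -0.6248 for III and -0.2109 for V, with 8 lower, over fewer genes. In complex II only SDHC was left, so the value is that of a single gene, and in complex III only CYC1, UQCRH and UQCRQ were left. As deposited and with the other centre, every median differs from the reported one by a single constant, the difference in what was taken off. The cause of the remaining moves was not tested. Depth is unknown, so no detection limit can be given.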
